A study of Mus musculus with 24 samples.

Results

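The comparison described here sets pancreatic islets of BLKS mice (strain C57BLKs/J) fed a high-fat diet that contained pioglitazone against islets of BLKS mice fed chow. Its 8 arrays, 4 in each group, were chosen by the sample titles out of 24 arrays in the series, and all genes measured on them were compared. All mice were male inbred animals with no allele or transgene named in the labels, aged 8 weeks when the diets began. Chow held 18% of its kcal as fat, the high-fat diet (HFD) held 42%, and pioglitazone (Pio), a thiazolidinedione drug that activates PPAR-gamma, was mixed into the HFD at 140 mg per kg of diet. The labels give 12 weeks of feeding and the text of the series gives 16 weeks. The other arrays held BLKS mice on HFD alone and BL6 mice (C57BL6/J) on the same 3 diets, 4 mice to a group. Each array carried amplified, Cy3-labelled RNA from the islets of 1 mouse. Diet and drug changed together between the groups compared, so the contrast alone cannot tell their parts apart.

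PPAR-gamma is a ligand-activated transcription factor that pairs with RXR and switches on genes of fatty acid uptake and lipid storage, above all in adipocytes and in the capillary endothelium that supplies them. Agonists of this receptor are known to raise the transcripts of the fatty acid binding protein Fabp4, the fatty acid transporter Cd36 and the retinoid-binding protein Rbp7. Islets hold hormone-secreting endocrine cells, a dense capillary bed, resident macrophages and few glial cells, and an islet preparation carries some exocrine tissue along.

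Levels are log2 intensities of a gene's probe minus the array's own 75th percentile, so that 1 unit is a doubling. Differences are HFD plus Pio minus chow, with the standard error (SE) of a limma fit to all 24 arrays, and a gene was called when its Benjamini-Hochberg adjusted p was below 0.05 over 22968 genes. On the 24 arrays the 75th percentile of intensity lay between 217.9 and 403.3 units, and Ins1, Gcg, Sst, Ppy and Ins2, which encode the islet hormones, were each well above background on all 8 arrays compared. The chow arrays lay on slides 2 and 4 and the HFD plus Pio arrays on slide 3, so slide and group cannot be told apart by a fixed term. Acinar-cell markers varied most between preparations: the mean of 31 markers stood at -3.3, 5.37, 1.76 and 4.24 on the chow arrays and at 1.39, 4.44, 6.42 and 6.36 on the HFD plus Pio arrays. Bulk RNA does not separate a change in the number of a cell type from a change in RNA per cell.

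Few genes differed between the groups. Of 22968 genes, 8 were called (0.0348%), 2 of them higher (0.00871%) and 6 lower (0.0261%) in HFD plus Pio islets. They included Rbp7, which rose, the clock gene Arntl, the matrix gene Emid1 and 1 probe of Trp63, which fell, and 4 probes of clones or unnamed transcripts. At an unadjusted p below 0.05 there were 1662 genes (7.24%), 3.22% of all genes higher and 4.02% lower. For 6.67% of all genes the 4 arrays of one group lay wholly beyond the 4 of the other, 2.96% above and 3.71% below chow, and these shares are the background for the counts of non-overlapping genes given below. A total of 47% of genes had a positive and 53% a negative difference, and the median over all genes was -0.01. The 8 calls lay near the threshold (limma adjusted p from 0.033 to 0.048), and their count changed when 1 mouse was left out. It was 0 without chow mouse 1, HFD plus Pio mouse 2 or HFD plus Pio mouse 3, and 11 without chow mouse 4. The first 3 of these fits had 1405, 1432 and 1557 genes at an unadjusted p below 0.05.

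Rbp7 encodes a cytoplasmic retinol-binding protein and is a known PPAR-gamma target of adipocytes and endothelium. Its probe lies on chromosome 4, at 148823823 to 148823882 of the mm9 build. On the chow arrays it stood at -0.21, 0.18, 0.48 and 0.43, and on the HFD plus Pio arrays at 1.56, 1.39, 1.58 and 1.45. Every HFD plus Pio array thus lay above every chow array. Rbp7 rose by 1.27 ± 0.19 (SE; 2.42-fold, limma adjusted p = 0.033). On HFD alone the 4 arrays stood at -0.1, -0.08, 0.27 and -0.04, within the range of chow, and the limma difference between HFD plus Pio and HFD alone was 1.48 ± 0.19 (adjusted p = 0.0036). The limma call was lost without chow mouse 1 (1.13, adjusted p = 0.105), without HFD plus Pio mouse 2 (1.31, adjusted p = 0.096) and without HFD plus Pio mouse 3 (1.25, adjusted p = 0.08), while the size stayed between 1.05 and 1.36 in all 22 alternative settings.

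**Figure D1:**
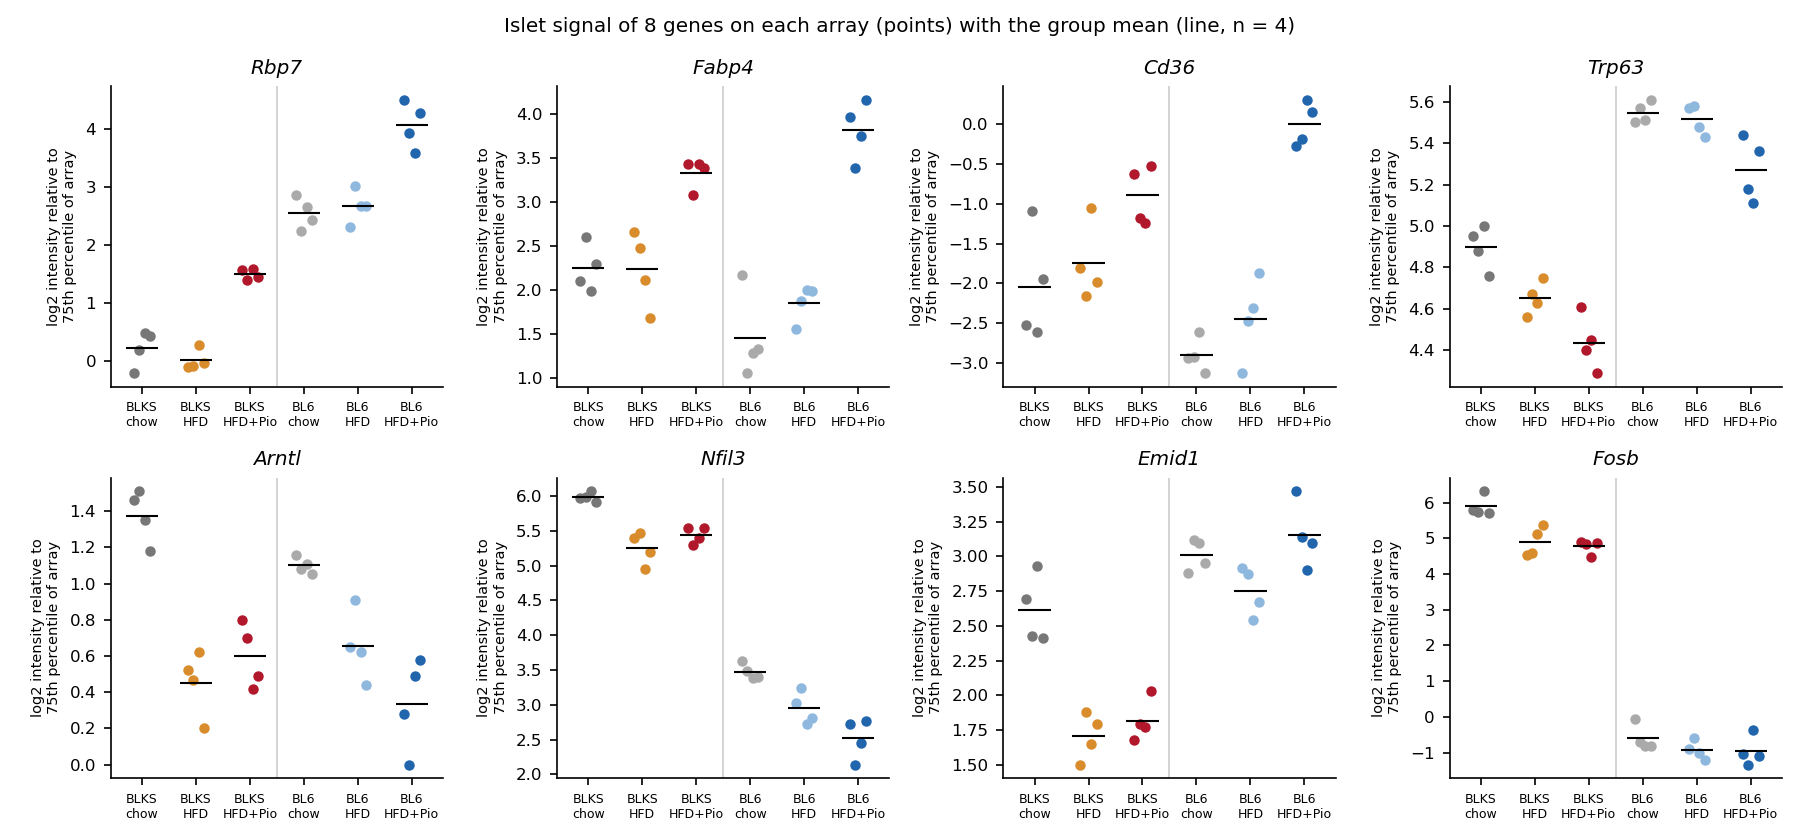
Log2 intensity relative to the 75th percentile of the array for 8 genes, 1 panel each, on all 24 arrays; points are arrays, black lines are group means (n = 4), and the grey line parts BLKS from BL6. In BLKS islets the 4 HFD plus Pio arrays of Rbp7 sit between 1.39 and 1.58, above all chow and HFD arrays, while Arntl, Nfil3 and Emid1 sit lower than chow on HFD with and without the drug.

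Fabp4 stood at 2.11, 2.6, 1.99 and 2.3 on chow and at 3.43, 3.08, 3.43 and 3.38 on HFD plus Pio. The groups did not overlap, but the limma difference of 1.08 ± 0.23 (SE; 2.12-fold) did not pass (adjusted p = 0.13). Cd36 stood at -2.52, -1.09, -2.61 and -1.95 on chow and at -0.62, -1.18, -1.24 and -0.53 on HFD plus Pio. Here chow mouse 2 overlapped the HFD plus Pio arrays, and the limma difference of 1.15 ± 0.31 (SE) did not pass either (adjusted p = 0.3). Pparg itself, the receptor gene, lay between 2.43 and 2.68 on chow and between 2.53 and 2.72 on HFD plus Pio, with a limma difference of 0.08 ± 0.15 (adjusted p = 0.98).

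Of 34 listed PPAR-gamma targets 27 were measured, and 7 (Plin1, Adipoq, Cidec, Pck1, Cfd, Orm1 and Olr1) had no probe above the filter on dim signals. Among the measured targets 1 was called higher and 0 lower, 19 had a positive difference, and the median was 0.15 against -0.01 over all genes. It was 0.09 without HFD plus Pio mouse 3 and between 0.11 and 0.18 without any other mouse. The HFD plus Pio arrays lay wholly above chow for 5 targets, among them Rbp7, Fabp4, the triglyceride lipase Pnpla2 (0.24 ± 0.09) and the acyl-CoA synthetase Acsl1 (0.17 ± 0.14). They lay wholly below it for Lpl, the lipoprotein lipase that releases fatty acids from triglyceride (-0.4 ± 0.14, limma adjusted p = 0.49). Angptl4, a secreted inhibitor of lipoprotein lipase, had a difference of 0.84 ± 0.45 with overlapping groups. Of 14 listed adipocyte markers 7 were measured, their differences ran from -0.81 for Retn to 1.08 for Fabp4 with a median of -0.03 (between -0.09 and 0.18 with 1 mouse left out), and Adipoq, Plin1 and Lep had no kept probe. Of 18 endothelial markers 2 had a positive difference, with a median of -0.1, and their mean on the arrays ran from 0.77 to 1.16 on chow and from 0.52 to 1.09 on HFD plus Pio.

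**Figure D2:**
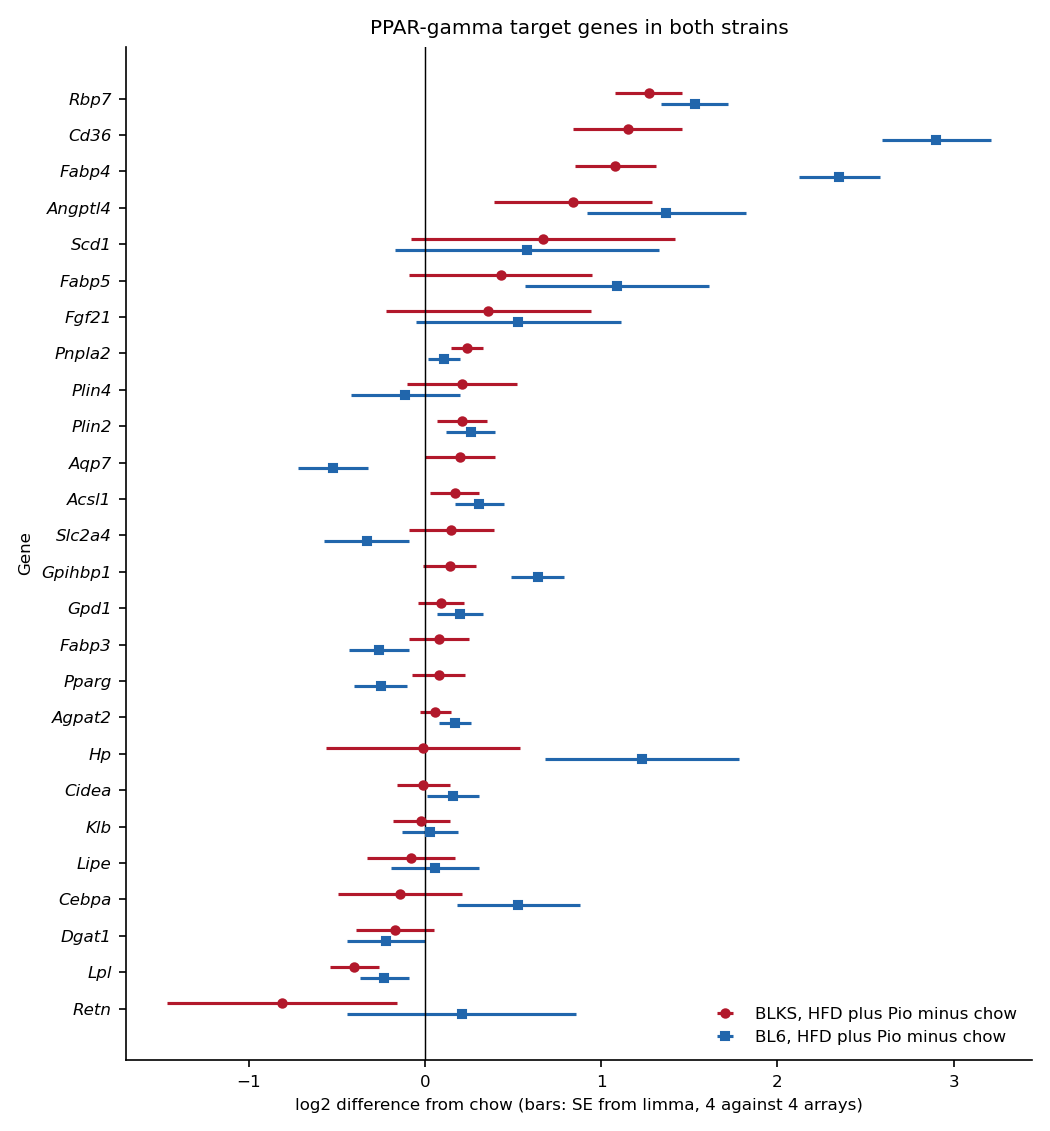
Log2 difference between HFD plus Pio and chow for 26 of the 27 measured PPAR-gamma targets, circles for BLKS and squares for BL6 islets, with bars for the SE of the limma fit (4 against 4 arrays). Rbp7, Cd36 and Fabp4 lead in both strains; in BLKS they sit at 1.27, 1.15 and 1.08, and in BL6 at 1.53, 2.9 and 2.35.

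Arntl, also called Bmal1, encodes the transcription factor that pairs with Clock to drive the circadian feedback loop. The loop runs through E-box elements in the genes for Per, Cry, Rev-erb (Nr1d1, Nr1d2) and the PAR-bZIP factors Dbp, Tef and Hlf; Rev-erb and ROR proteins in turn act on Arntl and Nfil3 through elements built on the letters AGGTCA, and Nfil3 and the PAR-bZIP factors meet at D-boxes. Clock transcripts rise and fall over the day, and the labels used here give no time of tissue collection. To show these letters in the genes at issue, 4 stretches of RefSeq promoter windows (assembly GRCm38.p6) are printed 5′ to 3′ on the gene's strand, with the matching letters in capitals: AGGTCA at Arntl (chr7:113207530-113207559, inside the transcribed part, position 32 from the start), its reverse complement at Nfil3 (chr13:52981040-52981069, minus strand, position -12), the E-box CACGTG at Tef (chr15:81802534-81802563, position -127) and 2 copies of the D-box TTATGTAA at Per3 (chr4:151044809-151044878, minus strand, positions -205 and -158).
Arntl: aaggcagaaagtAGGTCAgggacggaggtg
Nfil3: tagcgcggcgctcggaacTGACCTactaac
Tef: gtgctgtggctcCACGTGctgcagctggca
Per3: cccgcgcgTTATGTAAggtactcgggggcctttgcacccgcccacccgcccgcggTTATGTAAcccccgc

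Each window ran from 250 bases before to 50 after a start, and both strands were searched. Of 32851 windows of all genes, 16.3% held AGGTCA, 7.15% CACGTG, 0.938% TTATGTAA and 0.0396% the DR1 element, a direct repeat of AGGTCA spaced by 1 base, to which PPAR-gamma and RXR are known to bind and which overlaps the single copy. Of the 23 listed clock genes 18 had at least 1 window: 5 held AGGTCA (Arntl, Clock, Per1, Nr1d2 and Nfil3), 5 held CACGTG (Per1, Cry1, Tef, Bhlhe41 and Ciart), 1 held TTATGTAA (Per3) and 0 the DR1 element. The Rbp7 window held none of these letters, a Cd36 window held AGGTCA (position -228), and Fabp4 had no window. These matches describe letters only, and some genes have several windows.

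Arntl, probed on chromosome 7 at 120457261 to 120457320 (mm9), stood at 1.46, 1.51, 1.35 and 1.18 on chow and at 0.8, 0.7, 0.42 and 0.49 on HFD plus Pio. The groups did not overlap. Arntl fell by 0.77 ± 0.13 (SE), a change of -41.4% (limma adjusted p = 0.038). On HFD without the drug its arrays stood at 0.52, 0.47, 0.62 and 0.2, also below chow, with a limma difference from the same chow arrays of -0.92 (adjusted p = 0.011). Between HFD plus Pio and HFD alone the difference was 0.15 ± 0.13 and did not pass. The call of Arntl against chow held without chow mouse 4 and without HFD plus Pio mouse 1 and was lost without each of the other 6 mice, with adjusted p between 0.096 and 0.18 and sizes between -0.8 and -0.71.

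Of the 22 measured clock genes 1 was called lower and 0 higher, 12 had a negative difference, and the median was -0.05 (-0.11 without chow mouse 2, -0.03 without HFD plus Pio mouse 2). For 7 the HFD plus Pio arrays lay wholly below chow, and for 0 wholly above it. Besides Arntl these included Nfil3, Rora, Cry2, Npas2 and Nr1d1. Nfil3, a bZIP repressor that opposes the PAR-bZIP factors at D-boxes, stood at 5.97, 5.98, 6.07 and 5.91 on chow and at 5.54, 5.29, 5.39 and 5.54 on HFD plus Pio. Its difference of -0.54 ± 0.14 did not pass (limma adjusted p = 0.23). On HFD alone Nfil3 was called, at -0.73 from the same chow arrays (limma adjusted p = 0.04). Rora, a ROR nuclear receptor, did not pass for HFD plus Pio against chow, at -0.3 ± 0.11. Npas2, a relative of Clock and partner of Arntl, had -0.8 ± 0.48 and was well above background on only 2 of the HFD plus Pio arrays. Nr1d1 (Rev-erb alpha) had -0.48 ± 0.32 and the photolyase relative Cry2 had -0.26 ± 0.15.

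At the other end of the list stood Per3 (0.63 ± 0.31), Hlf (0.48 ± 0.21), Tef (0.38 ± 0.17) and Per1 (0.21 ± 0.14), which did not pass and whose groups overlapped. Dbp had 0.15 ± 0.3, Clock -0.09 ± 0.14 and Per2 -0.34 ± 0.18. The 4 stretches were chosen after these values were seen, so their letters say nothing about direction. Among the other genes with AGGTCA, Clock, Per1 and Nr1d2 had differences of -0.09, 0.21 and 0.09, and among the other genes with CACGTG, Cry1 and Bhlhe41 had 0.03 and 0.

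**Figure D3:**
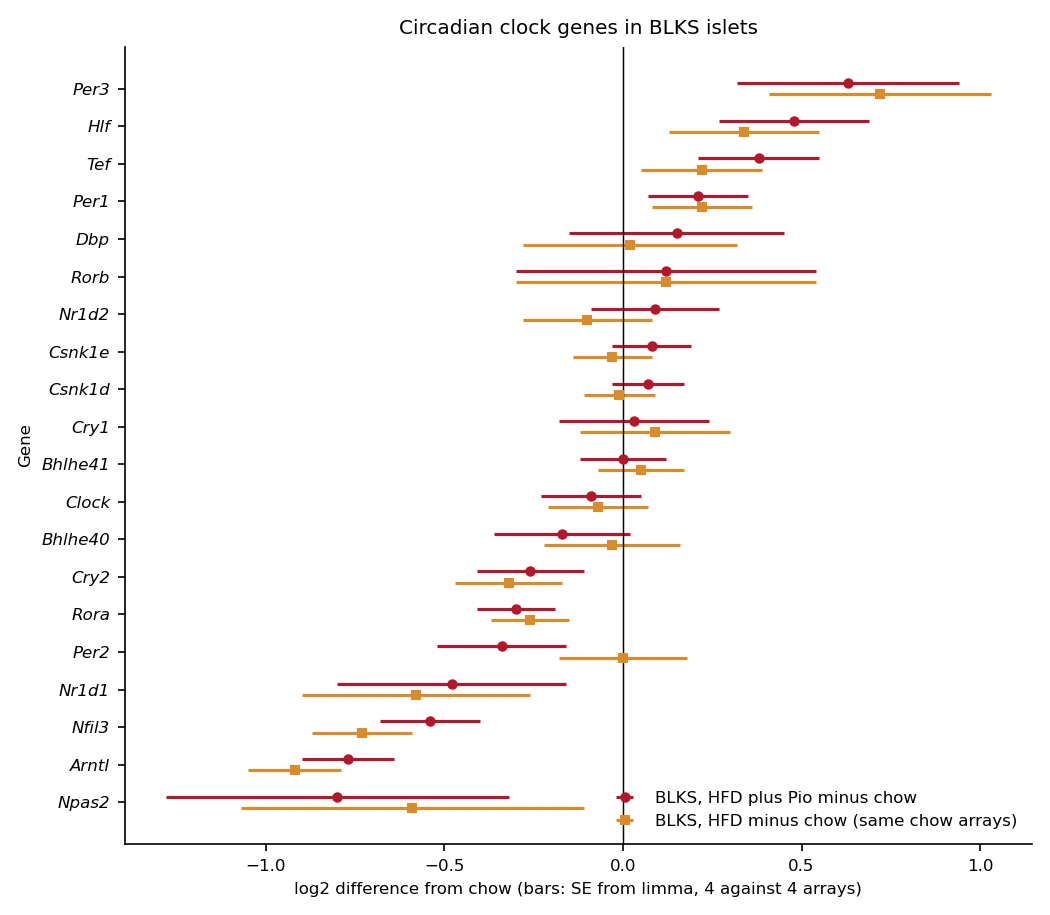
Log2 difference from chow of 20 of the 22 measured clock genes in BLKS islets, circles for HFD plus Pio and squares for HFD alone, with bars for the SE of the limma fit; both comparisons use the same 4 chow arrays. Arntl sits at -0.77 and -0.92, Nfil3 at -0.54 and -0.73, and Per3 at 0.63 and 0.72.

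Emid1 encodes a secreted protein of the EMILIN family with collagen stretches. It stood at 2.69, 2.43, 2.93 and 2.41 on chow and at 1.68, 1.79, 1.77 and 2.03 on HFD plus Pio. The groups did not overlap, and Emid1 fell by 0.8 ± 0.13 (SE), a change of -42.5% (limma adjusted p = 0.038). A second probe of the gene, on chromosome 11 like the first, had a difference of -0.71. HFD alone gave values of 1.5, 1.88, 1.65 and 1.79 and a limma difference from chow of -0.91 (adjusted p = 0.012). The call against chow held without chow mouse 2, chow mouse 4 or HFD plus Pio mouse 4 and was lost without each of the other 5, with adjusted p between 0.096 and 0.21.

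Trp63 encodes the transcription factor p63 of stratified epithelia. Its bright probe on chromosome 16 stood at 4.95, 4.88, 5 and 4.76 on chow and at 4.61, 4.4, 4.45 and 4.29 on HFD plus Pio, without overlap. It fell by 0.46 ± 0.08 (SE), a change of -27.4% (limma adjusted p = 0.048), and on HFD alone it stood at 4.56, 4.67, 4.63 and 4.75. The 3 other Trp63 probes of the array were well above background on 0 of the 24 arrays, so the value rests on 1 of the gene's 4 probes. Their group means lay between -6.85 and -5.86, far below the 4.9 of the bright probe on chow, and whether that probe measures Trp63 was not tested. Its call held only without chow mouse 4 or HFD plus Pio mouse 1 and was lost without each of the other 6, with adjusted p between 0.115 and 0.244.

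The remaining 4 calls carry no gene symbol. An unnamed probe on chromosome 14 (34245994 to 34246053, mm9) stood between -2.29 and -1.84 on chow and between -1.46 and -1.16 on HFD plus Pio, and rose by 0.73 ± 0.13 (limma adjusted p = 0.048). The clone 6330545A04Rik had a difference of -1.32 but was well above background on 0 of the 8 arrays, so neither group has a measured level. The brightest probe of a transcribed region of chromosome 19 was well above background on 3 chow arrays and 0 HFD plus Pio arrays. This probe was at least 1.33-fold lower with HFD plus Pio. A second kept probe of the region had a difference of -0.65. With the mean of the kept probes the call was lost (-0.99, limma adjusted p = 0.15). The probe of a region of chromosome X was well above background on 1 chow array and 0 HFD plus Pio arrays, and no fold is given for it. With normexp and quantile normalization the differences of the 3 dim probes that were called (clone, chromosome 19 and chromosome X) were between -0.15 and -0.09.

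Genes next in order of p did not pass. Among those with positive differences, C4bp, a plasma inhibitor of complement, stood between -3.07 and -2.1 on chow and between -1.78 and -1.44 on HFD plus Pio (1.14 ± 0.22, limma adjusted p = 0.073). Hpgds, the prostaglandin D synthase of haematopoietic cells, had 0.74 ± 0.15 (adjusted p = 0.12), and on HFD alone 0.96 (adjusted p = 0.025), both by limma. Smyd1, a muscle methyltransferase gene, had 0.47 ± 0.09, and Tmeff2, a transmembrane protein gene, was well above background on 1 chow array and 3 HFD plus Pio arrays; its difference of 2.49 ± 0.57 is thus set against a group mostly at background and ran from 0.55 to 3.17 over the alternative settings, with chow mouse 1 at -3.66 among the HFD plus Pio arrays. Among the negative differences, Olfr224, an olfactory receptor gene, had -1.43 ± 0.26 (limma adjusted p = 0.052), the TNF receptor family gene Relt -0.76 ± 0.14 (0.063), the acetyltransferase gene Crebbp -0.41 ± 0.08 (0.098), the AP-1 gene Fosb -1.12 ± 0.23 (0.11) and Nckap5 -1.33 ± 0.28 (0.12). Except for Tmeff2, the arrays of these 9 genes did not overlap between the groups. Olfr224 was well above background on only 2 HFD plus Pio arrays. Its difference ran from -1.64 to -0.44 over the alternative settings.

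The endocrine genes of the islet showed small differences, and none of the 32 beta-cell genes was called by limma (4 at an unadjusted p below 0.05, all lower). Ins1 and Ins2, the insulin genes, had differences of -0.12 ± 0.16 and -0.11 ± 0.15. The other hormone genes, Gcg of alpha cells, Sst of delta cells and Ppy of PP cells, had -0.11 ± 0.14, -0.02 ± 0.14 and -0.12 ± 0.46. The intervals (95%) ran from -0.39 to 0.17 for Gcg and from -1.09 to 0.84 for Ppy, so a halving lay inside the interval of Ppy and outside that of Gcg. The beta-cell transcription factors Pdx1 and Mafa had 0.11 ± 0.13 and -0.15 ± 0.11, and the glucose transporter Slc2a2 had -0.26 ± 0.13. Of the 32 genes 23 had a negative difference, with a median of -0.11. The arrays of 4 lay wholly below chow: the prolactin receptor Prlr (5.05 to 5.09 on chow, 4.54 to 4.82 on HFD plus Pio), the fatty acid receptor Ffar1 (-0.57 ± 0.2), the peptide Ucn3 of mature beta cells (-0.33 ± 0.13) and the prohormone convertase Pcsk1 (-0.16 ± 0.16). Their limma adjusted p lay between 0.5 and 0.93. Nnt, whose deletion is known in BL6 mice, had -0.15 ± 0.12 in BLKS islets.

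Of 23 genes of glucose sensing and ion channels 7 had a positive difference (median -0.1). Of 33 granule exocytosis genes 9 had a positive difference (median -0.09), with the largest for Cplx1, a complexin of the fusion machinery (1.48 ± 0.6), and the calcium sensor Doc2b (0.78 ± 0.3), both with overlapping groups. Of 40 genes of oxidative phosphorylation 20 had a positive difference, with a median of 0 and a range from -0.16 to 0.21. None of these 3 lists held a called gene in limma, and 3 members of each of the first 2 lists and 0 of the third were at an unadjusted p below 0.05.

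Genes of the unfolded protein response, by which cells with a heavy secretory load expand chaperones and folding enzymes, had small negative differences. Of 39 measured members 37 had a negative difference, against 53% of all genes, with a median of -0.15 and a range from -0.37 to 0.04. None was called by limma, and 6 were at an unadjusted p below 0.05. Their mean was 4.97, 4.91, 4.83 and 4.86 on chow and 4.73, 4.75, 4.81 and 4.71 on HFD plus Pio, so the groups did not overlap. On HFD alone the mean was 4.86, 4.82, 4.66 and 4.77. There 33 of the 39 had a negative difference from the same chow arrays (median -0.1). In BL6 islets 36 were negative for HFD plus Pio against chow (median -0.23). For 7 genes the HFD plus Pio arrays lay wholly below chow: Herpud1 of ER-associated degradation (7.04 to 7.26 on chow, 6.81 to 6.95 on HFD plus Pio, -0.27 ± 0.11), the phosphatase subunit Ppp1r15a (-0.26 ± 0.11), Sdf2l1 (-0.34 ± 0.14), the stress sensor Atf6 (-0.25 ± 0.12), Ssr3, the translocon gene Sec61a1 and the co-chaperone Dnajb9. The chaperone Calr had the smallest p of the list (-0.27 ± 0.09, limma adjusted p = 0.48) with overlapping groups, Ddit3, the stress factor CHOP, had -0.37 ± 0.16, and Xbp1, Atf4 and Hspa5 had -0.02 ± 0.08, -0.03 ± 0.16 and -0.1 ± 0.13. The list median was between -0.17 and -0.11 when any one mouse was dropped, and -0.09 on the authors' value table.

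Immediate early genes, which respond within minutes to depolarization, growth factors or handling, also had mostly negative differences. Of 24 measured members 21 had a negative difference, the median was -0.26, and limma called 0 (3 at an unadjusted p below 0.05). Their mean ran from 3.23 to 3.56 on chow and from 2.95 to 3.12 on HFD plus Pio, without overlap. On HFD alone the mean ran from 2.99 to 3.24. There 19 of the 24 had a negative difference from the same chow arrays (median -0.16). In BL6 islets 16 were negative for HFD plus Pio against chow (median -0.27). For 5 genes the HFD plus Pio arrays lay wholly below chow. Fosb stood at 5.8, 5.75, 6.32 and 5.7 on chow and at 4.9, 4.84, 4.49 and 4.86 on HFD plus Pio. The zinc-finger factors Klf4 and Egr1 had -0.55 ± 0.15 and -0.62 ± 0.3, the activity-dependent factor Npas4 had -0.41 ± 0.29, and Fos had -0.71 ± 0.52. The median was -0.41 without chow mouse 1 and -0.19 without chow mouse 3. In the BL6 chow islets the probe of Fosb had a mean of -0.59 ± 0.37 (SD, n = 4) on the same scale, far below its level in BLKS chow islets, as the plot of 8 genes by array shows.

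Interferon-response genes, which cells switch on when they sense viral or self nucleic acid, had mostly positive differences. Of 25 measured members 21 had a positive difference, against 47% of all genes, the median was 0.35, and limma called 0 (5 at an unadjusted p below 0.05, all higher). Their mean was 0.81, 0.64, 0.47 and 0.62 on chow and 1.08, 0.85, 1.13 and 1.11 on HFD plus Pio, and on HFD alone it was 0.67, 0.67, 0.85 and 0.81. For 8 genes the HFD plus Pio arrays lay wholly above chow. Among them were the RNA sensors Ddx58 (0.4 ± 0.13) and Ifih1 (0.29 ± 0.11), the tetherin gene Bst2 (0.74 ± 0.26), Oasl2 and Oas2 of the oligoadenylate synthetase family (0.81 ± 0.29 and 0.81 ± 0.42), the antiviral genes Ifit1 and Ifit3 (0.83 ± 0.31 and 0.94 ± 0.46) and the transcription factor Irf7 (0.59 ± 0.37). The limma adjusted p of these 8 lay between 0.43 and 0.83. Irf1 and Ifi44 had differences of -0.02 ± 0.15 and -0.01 ± 0.18. The list median stayed between 0.29 and 0.41 when any one of these mice was dropped.

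Of 28 inflammation genes 20 had a positive difference (median 0.3; 0.2 without HFD plus Pio mouse 3), and limma called 0 (3 at an unadjusted p below 0.05). The chemokine Cxcl5 was well above background on 1 chow array and on 4 HFD plus Pio arrays (1.52 ± 0.59), and the cytokine Il6 stood between -0.28 and 0.49 on chow and between 0.93 and 1.2 on HFD plus Pio (0.87 ± 0.37). The groups did not overlap for either gene. The value of Cxcl5 is set against a group mostly at background and ran from 0.46 to 1.71 over the alternative settings. On HFD alone Cxcl5 stood at -1.8, -1.65, 0.86 and -3.97, and Il6 had a difference of 1.02 from the same chow arrays. The chemokines Ccl2 and Ccl7 had wide errors (1.17 ± 0.75 and 1.74 ± 0.88). Socs3, a feedback inhibitor of cytokine signals, had -0.36 ± 0.18 with its HFD plus Pio arrays wholly below chow.

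Lipid metabolism outside the PPAR-gamma targets showed small differences. Of 33 genes of PPAR-alpha and fatty acid oxidation 21 had a positive difference (median 0.04), with the lowest p for the pyruvate dehydrogenase kinase Pdk4 (0.62 ± 0.23) and the enoyl-CoA isomerase Eci2 (0.25 ± 0.11, no overlap). Of 24 cholesterol synthesis genes 10 had a positive difference (median -0.03), with Acat2 and Dhcr7 both at 0.34. Of 19 fatty acid synthesis genes 12 had a positive difference (median 0.1). None was called by limma, with 3, 2 and 0 members at an unadjusted p below 0.05. Hypoxia and glycolysis (24 genes, median 0.04), antioxidant genes (26, median -0.01), apoptosis (27, median 0) and genes normally kept off in beta cells (18, median 0.02) held 0 calls as well, with 2, 0, 0 and 0 members at an unadjusted p below 0.05. Of 38 cell-cycle genes 11 had a positive difference; their median of -0.11 was -0.31 without HFD plus Pio mouse 1, -0.01 without chow mouse 2 and 0.03 without HFD plus Pio mouse 3. Mki67, the proliferation marker, had -0.36 ± 0.82.

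Markers of other cells that an islet preparation can hold varied from mouse to mouse. Of 31 acinar markers 30 had a positive difference with a median of 2.59, which was 0.85 without chow mouse 1. Limma called 0 of them (0 at an unadjusted p below 0.05), as the protease Cela2a shows with -6.55, 4.67, 0.61 and 3.78 on chow and 0.52, 4, 6.59 and 6.58 on HFD plus Pio. Of 22 lymphocyte markers 6 had a positive difference; their mean stood at -3.01, -0.52, -3.18 and -1.44 on chow and at 0.31, -3.34, -3.05 and -3.42 on HFD plus Pio, and the median of -0.29 became -1.26 without HFD plus Pio mouse 1, 0.13 without chow mouse 2 and 0.02 without HFD plus Pio mouse 2 or 4. The macrophage list (23 genes) had a median of -0.01 (-0.2 without HFD plus Pio mouse 1, 0.08 without HFD plus Pio mouse 2). Its differences, 10 positive and 13 negative, ran from -0.81 to 1.07. Limma called 0 of its genes, with 1 higher and 2 lower at an unadjusted p below 0.05. The complement gene C1qa (-0.43 ± 0.15) was the 1 member whose groups did not overlap. With the acinar mean as a covariate limma called 0 genes (1336 at an unadjusted p below 0.05), with Rbp7 at 1.25 (adjusted p = 0.15) and Arntl at -0.75 (adjusted p = 0.15), and with the lymphocyte mean as a covariate it called 9.

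Smaller compartments were as uneven. Of 11 Schwann-cell and glial genes 9 had a positive difference (median 0.35; 0.19 without chow mouse 3 or HFD plus Pio mouse 1), with Gfap, well above background on 1 chow array, between -5.89 and -2.89 on chow and between -4.64 and -1.68 on HFD plus Pio. Of 26 stellate and matrix genes 18 had a positive and 8 a negative difference, with a median of 0.15. This median was 0 without chow mouse 3 and 0.36 without chow mouse 1 or HFD plus Pio mouse 1. The differences ran from -0.42 to 1.05, the highest for the proteoglycan gene Dcn. The HFD plus Pio arrays lay wholly above chow for 1 gene, Dcn, and wholly below it for 1 other. In limma 1 gene was higher and 1 lower at an unadjusted p below 0.05. Ductal (16 genes), alpha-cell (9) and delta- and PP-cell (7) lists had medians of -0.02, -0.08 and -0.02, which with 1 mouse left out lay between -0.12 and 0.12. Limma called 0 genes in these lists (3, 2, 0, 0 and 0 at an unadjusted p below 0.05), and the part of these cells in the calls above was not tested beyond the 2 covariates.

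**Figure D4:**
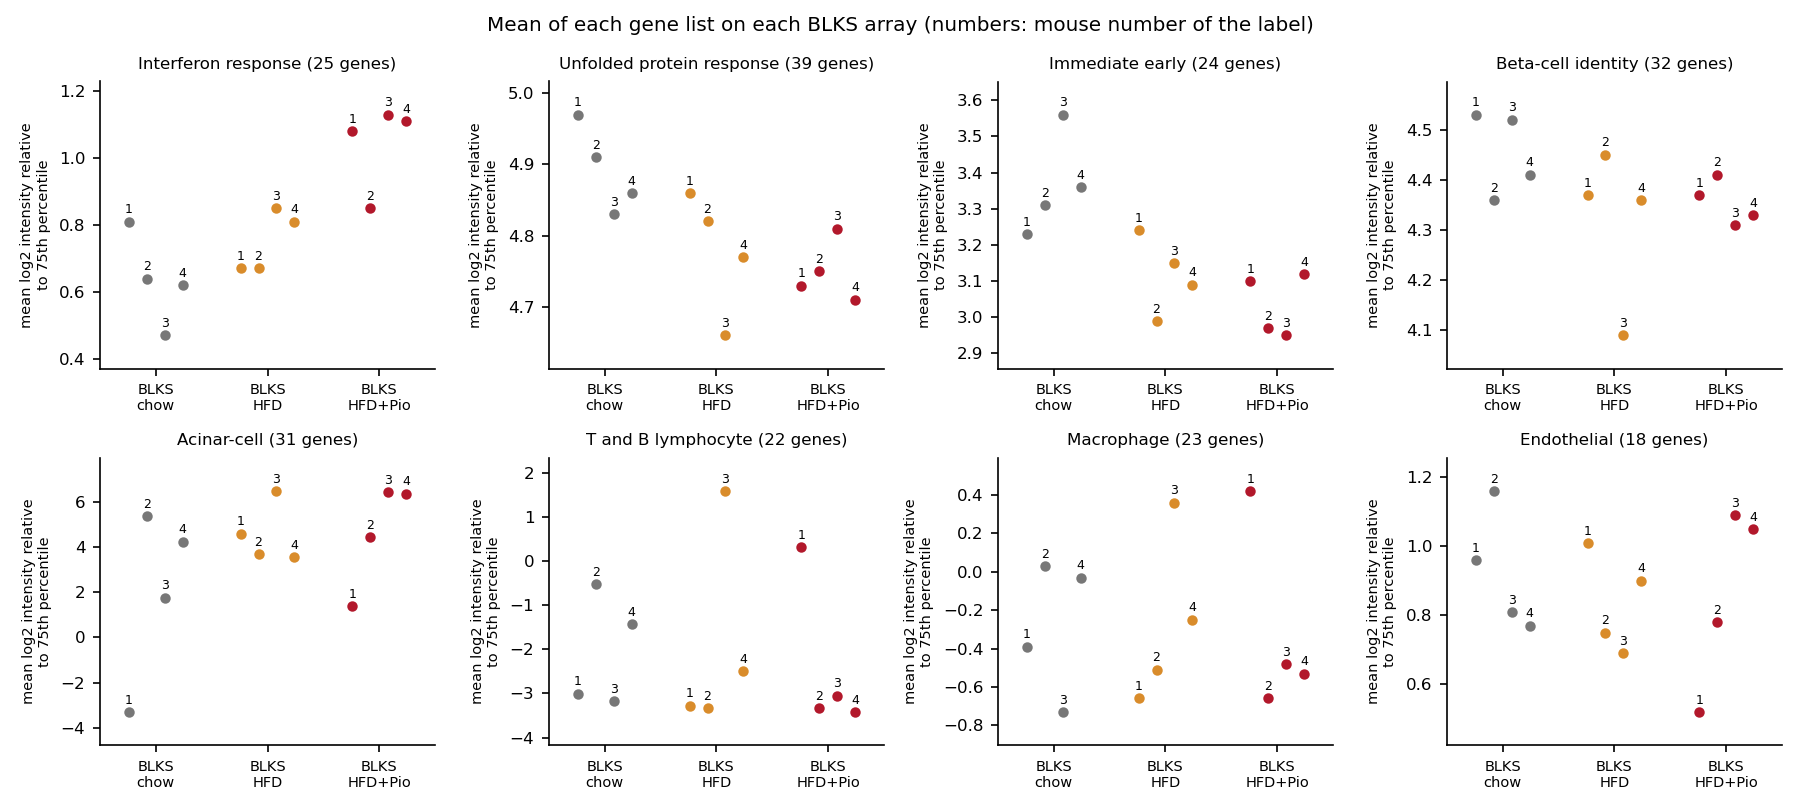
Mean log2 intensity relative to the 75th percentile for 8 gene lists on each of the 12 BLKS arrays, 1 panel per list; points are arrays with the mouse number of their label, on chow, HFD and HFD plus Pio. The interferon mean runs from 0.47 to 0.81 on chow and from 0.85 to 1.13 on HFD plus Pio, the unfolded protein and immediate early means lie lower on HFD plus Pio than on chow, and acinar means run from -3.3 to 6.48 and lymphocyte means from -3.42 to 1.58.

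The high-fat diet without the drug gives a second view of the same chow arrays. Its 4 arrays lay on slide 3 with those of HFD plus Pio, so slide and diet cannot be told apart in its differences from chow either. Against chow it had 18 called genes (0.0784%), 4 higher (0.0174%) and 14 lower (0.061%), and HFD plus Pio against HFD alone had 1, Rbp7 (0.00435%). These comparisons share arrays with the one described here, so their values stand side by side only. The Wnt inhibitor Dkk2 had -1.19 on HFD alone, -0.57 with the drug, and 0.62 ± 0.19 between HFD plus Pio and HFD (limma adjusted p = 0.025, 0.48 and 0.61). The adenylate kinase Ak5 had -0.93, -0.33 and 0.6 ± 0.16, the deacetylase Hdac8 -0.58, -0.28 and 0.31 ± 0.1, and the aldehyde oxidase Aox1 -0.61, -0.28 and 0.33 ± 0.11. The limma adjusted p of these last differences was 0.35, 0.63 and 0.74. Dkk2, Ak5, Hdac8 and Aox1 were picked from the 18 genes called on HFD alone, which by itself favours values far from chow there. The same HFD arrays enter the last difference, so it does not show a reversal. Between HFD plus Pio and HFD alone limma called 0 of the 18. For Arntl, Emid1, Nfil3 and Hpgds the differences between HFD plus Pio and HFD alone were 0.15, 0.11, 0.19 and -0.22. For Fabp4 the difference from chow was -0.01 on HFD alone and 1.08 with the drug. Cholesterol synthesis genes had a median of 0.15 on HFD alone and -0.03 with the drug, and interferon genes 0.18 and 0.35.

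In BL6 islets, on other mice and arrays, HFD plus Pio against chow had 64 called genes (0.279%), 29 higher (0.126%) and 35 lower (0.152%). The BL6 chow arrays lay on slide 1 and those of BL6 HFD plus Pio on slides 2 and 4. Slide and group thus cannot be told apart in BL6 or in the strain difference either. Of the 64 genes called in BL6, 2, Rbp7 and Arntl, were also called in BLKS islets, where they made up 2 of 8. In BLKS islets 46 of the 64 had the sign seen in BL6 (20 of the 29 higher genes were positive and 26 of the 35 lower genes negative), and 14 had that sign with an unadjusted p below 0.05. Over all genes in BLKS 47% were positive, 53% negative, and 7.24% at an unadjusted limma p below 0.05 in either direction. The share of all genes with the same sign in both strains was not computed. The median size of the 64 genes was 0.86 in BL6 and 0.12 in BLKS islets, taken in the BL6 direction. The 64 genes were picked for passing in BL6, which by itself favours larger sizes there, so these medians do not compare the strains. Rbp7 stood at 2.85, 2.23, 2.66 and 2.42 on BL6 chow and at 4.5, 3.93, 3.58 and 4.27 on BL6 HFD plus Pio. Its level was higher in BL6 islets on either diet, and its rise there of 1.53 ± 0.19 (limma adjusted p = 0.00056) differed from that in BLKS by -0.25 ± 0.27 (adjusted p = 0.83). Arntl fell by 0.77 ± 0.13 in BL6 (limma adjusted p = 0.011), a strain difference of 0 ± 0.18 with an interval from -0.38 to 0.37.

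The PPAR-gamma targets Fabp4 and Cd36 had larger differences in BL6. Fabp4 rose by 2.35 ± 0.23 there (limma adjusted p = 4.4e-05), and the strain difference of -1.27 ± 0.32 had an unadjusted p of 0.00082 and an adjusted p of 0.3 in limma. Cd36 rose by 2.9 ± 0.31 (limma adjusted p = 0.00011), from between -3.13 and -2.61 to between -0.27 and 0.31, with a strain difference of -1.75 ± 0.44 (adjusted p = 0.3). Macrophage genes that passed in BL6, Trem2 (1.19 ± 0.17) and Apoe (1.07 ± 0.18), a lipoprotein gene of macrophages and other cells, had 0.05 ± 0.17 and 0.09 ± 0.18 in BLKS islets. Zbtb16, a zinc-finger factor, had 2.19 ± 0.31 in BL6 and -0.32 ± 0.31 in BLKS, with a strain difference of -2.5 ± 0.44 (limma adjusted p = 0.15). Cry1, a repressor of the clock, fell by 1.13 ± 0.21 in BL6 and had 0.03 ± 0.21 in BLKS (strain difference 1.16 ± 0.3, limma adjusted p = 0.3). Nfil3 fell by 0.96 ± 0.14 in BL6 (limma adjusted p = 0.0029) and had -0.54 ± 0.14 in BLKS. Its strain difference was 0.42 ± 0.19 (limma adjusted p = 0.51). Emid1, called in BLKS, had 0.14 ± 0.13 in BL6, a strain difference of -0.94 ± 0.19 (adjusted p = 0.29 by limma).

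The test of the strain difference itself called 0 genes in limma (0%; 2199, or 9.57%, at an unadjusted p below 0.05), with Olfr224 lowest at an adjusted p of 0.086. None of the differences between strains named here therefore passed. Olfr224 was well above background on only 2 BL6 chow arrays and 2 BLKS HFD plus Pio arrays. Lymphocyte markers had a median difference of 1.87 in BL6 islets, with 22 of 22 positive against 46.1% of all genes, and of -0.29 in BLKS islets, and macrophage markers 0.99 and -0.01. None of the 22 lymphocyte markers was at an unadjusted p below 0.05 in BL6 by limma, and the groups overlapped. Their mean stood at -3.42, -3.53, -0.56 and -3.15 on BL6 chow and at -2.95, -0.4, 2.72 and -3.34 on BL6 HFD plus Pio. Of 23 macrophage markers 22 were positive in BL6 and limma called 1. There 18 were higher at an unadjusted p below 0.05, against 3573 of 22968 genes in either direction. The macrophage mean ran from -0.11 to 0.08 on BL6 chow and from 0.35 to 2.03 on BL6 HFD plus Pio, without overlap. Without the 7 arrays of the series whose lymphocyte mean was above -1, the counts were 59 in BL6, 2 in BLKS and 2 for the strain difference. The BL6 HFD plus Pio arrays and the BLKS chow arrays lay together on slides 2 and 4.

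**Figure D5:**
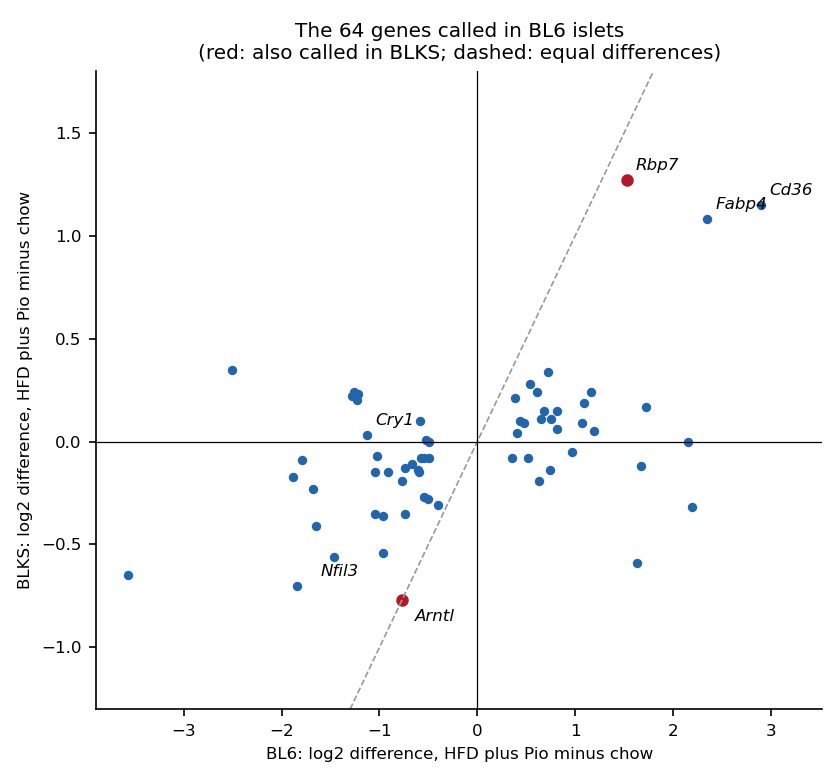
Log2 difference between HFD plus Pio and chow for the 64 genes called in BL6 islets, BL6 on the x axis and BLKS on the y axis; red points were also called in BLKS, and the dashed line marks equal differences. Rbp7 and Arntl lie near the line, and the median size is 0.86 in BL6 and 0.12 in BLKS islets. The genes were picked by their BL6 values, so these medians do not compare the strains.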

How the data were processed

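Groups were taken from the sample titles, with 1 array per mouse. Per the file headers, the deposited scanner files were made with Agilent Feature Extraction 10.7.3.1, whose processed intensity is background-subtracted and not yet normalized between arrays. The authors' deposited value table holds a ratio, the processed intensity over the array's median, and served as an alternative.

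Of 62976 spots 59305 were not controls; they made up 55681 probes, of which 55 were dropped for outlier flags, and 0 spots were saturated. The log2 processed intensity was set relative to the 75th percentile of each array. Probes well above background on at least 4 of 24 arrays were kept (32750), and the brightest stood for each gene name of the array design, giving 22968 genes, of which 6653 had several kept probes. Limma 3.58.1 in R 4.3.3 (lmFit and eBayes, 6 group means, 24 arrays) gave differences, standard errors and Benjamini-Hochberg adjusted p-values. The fit was tested on simulated data. Intervals are 95%, and the number of arrays limits the precision. Where a called probe was well above background on 0 arrays of 1 group, the fold is set against the lowest well-detected signal or the probe's own. This fold holds for the main normalization only and is no firm bound where an array of the other group was not well above background either. Labels do not say whether mice of a group shared a cage or day, so p-values measure the spread between these mice.

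The members, the 28 gene lists (672 of 717 entries measured) and the alternatives were chosen with earlier results of these data known. Named genes are the called ones, up to 14 in each direction, that do not overlap between groups and carry a gene symbol, or the 5 of lowest p where fewer than 5 passed, up to 4 called members a list, the 2 of lowest p in a list with 0 called, and a fixed set of islet, PPAR-gamma and clock genes; other members are named because their arrays did not overlap between groups or for their role, and these, the motif AGGTCA and the BL6 genes set beside them were chosen after their values were seen. Of 55626 probes 48.9% had an accession that pairs with a gene of GRCm38.p6. Alternatives were normexp (offset 50) with quantile normalization, quantile normalization, filters, probe means, the value table, a block for slide or for mouse number, a fit to the groups in question alone, trend and robust variances, array weights, marker covariates, and each mouse left out. A fixed slide block could not be fitted, since no slide held both groups. Results for a few list members are not reported here; those genes stay in the counts and medians.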

Additional observations from a re-analysis of the deposited data

Results flagged for a closer look

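Of 212 sets of 4 arrays examined (the named genes and the list means in each group), 9 held an array far from the other 3 by Dixon's criterion (gap over range above 0.829); chance alone marks about 1 set in 20, so the number is not above that. Chow mouse 3 stood apart for Olfr224 (-2.41, the others from -3.19 to -3.09) and for Fosb (6.32, the others from 5.7 to 5.8). HFD plus Pio mouse 3 stood apart for Fosb (4.49, the others from 4.84 to 4.9). For Fabp4 it was HFD plus Pio mouse 2 (3.08, the others from 3.38 to 3.43), and for Hpgds HFD plus Pio mouse 4 (-2.02, the others from -1.92 to -1.9).

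HFD plus Pio mouse 1 stood apart 4 times. Its mean of lymphocyte markers was 0.31 (the others from -3.42 to -3.05) and its mean of macrophage markers 0.42 (the others from -0.66 to -0.48). The endothelial receptor gene Tie1 was at -1.01 (the others from -0.16 to -0.05) and the endothelial gene Emcn at 0.52 (the others from 0.97 to 1.04). Without this mouse limma called 7 genes, Rbp7 among them at 1.25 (adjusted p = 0.041).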

How the results depend on the processing

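The count of 8 called genes in BLKS islets moved with most settings, and the 64 in BL6 islets with several. In this order, BLKS and then BL6, limma called 32 and 246 with normexp and quantile normalization, 2 and 176 with quantile normalization alone, 4 and 42 with no filter, 1 (not among the 8) and 3 with the compared groups alone, 4 and 108 with trend and robust variances, 99 and 219 with array weights, and 0 and 36 with the acinar mean as a covariate. With slide as a random block it called 11 in BLKS; the slide correlation was -0.012, and since no slide held both groups this does not separate slide from diet. In BLKS islets it called 4 where every array had to be well above background, 3 with the mean of probes, and 1 on the authors' value table. Without the arrays of high lymphocyte score, a choice made after the data were seen, it called 2 in BLKS, of which 0 were among the 8. Strain differences, 0 at first, were 16 with array weights and 2 without those arrays. With 1 mouse left out at a time, the counts ran from 0 to 11 in BLKS, from 22 to 274 in BL6 and from 0 to 1 for the strain difference. The share of higher genes among BLKS calls was 25%, and 40.6% with normexp and quantile normalization, 50% with quantile normalization and 53.5% with array weights.

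Mouse numbers did not pair the mice: correlations of same-numbered deviations were 0.2, -0.32, 0.13 and 0.14, and mice 1 and 4 correlated best with their own number. With mouse number as a replicate block the counts were 4 in BLKS, 65 in BL6 and 0 between strains. None of the called genes reversed its sign in any setting. Among 72 named genes that were not called, 4 changed sign, in 18 of 1574 values, and 25 values passed the threshold. The cause of these changes was not tested. Of the 8 calls, 3 rest on probes near background.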
